A study of Bos taurus with 40 samples.

Results

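The chemokines and chemokine receptors of Korean cattle were followed across the pituitary gland, the liver, abdominal adipose tissue (fat) and the longissimus dorsi muscle. The set holds every gene of the deposited tables whose symbol starts with CCL, CXCL, CCR, CXCR, XCL, XCR or CX3C followed by a digit or a letter of that nomenclature, with CCRN4L left out. It comprises 49 of the 13570 genes listed, 28 ligands and 21 receptors. Of these, 47 had a read in 1 or more of 40 samples and were tested with 13148 genes in all, while CCR4 and CXCR1 had no read in any sample.

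Chemokines are small secreted proteins that bind G protein-coupled receptors on leukocytes and other cells and direct their movement along a gradient. Homeostatic members such as CXCL12, CCL19, CCL21 and CXCL13 organise lymphoid tissue, stem cell niches and the routine traffic of cells. Inflammatory members such as CCL2, CCL3, CCL5 and CXCL10 are induced by cytokines and recruit monocytes, neutrophils or T cells. Atypical receptors such as CXCR7 and CCRL1 bind chemokines without the usual G protein signal and remove them from the tissue.

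RNA was collected from 10 animals of over 22 months, 5 females (cows 1 to 5) and 5 males (bulls 1 to 5), all of the same breed, with 1 library per animal and tissue. No treatment, feeding regime or castration is named in the labels. The study asked which genes differ between the sexes in each tissue. Levels are given as CPM, the counts scaled to a common total of reads on genes with TMM factors over all 40 libraries. The tables held between 5173092 and 19165864 reads on genes per library, so that 3 reads, taken as the floor of detection, correspond to 0.157 to 0.58 CPM before TMM scaling. The samples are whole tissue, in which more cells of a type and more RNA per cell cannot be told apart. Because transcript lengths were not used here, levels were compared between samples of a gene and not between genes.

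Each tissue carried its own markers: the summed level of the 3 measured hepatocyte markers was at least 73290 CPM in liver and at most 441.2 CPM elsewhere, that of the 2 adipocyte markers at least 1856 CPM in fat, that of the 3 muscle fibre markers at least 58960 CPM in muscle, and that of the 3 pituitary hormones at least 78140 CPM in the pituitary gland. Outside their own tissue, the adipocyte sum reached 308.2 CPM (muscle of cow 5), the muscle fibre sum 99.5 CPM and the hormone sum 368.2 CPM. The liver library labelled bull 3 went against its sex label: XIST, the RNA of the inactive X chromosome, stood at 1401 CPM there against at most 0.936 CPM in the other male livers, and DDX3Y, USP9Y and ZFY of the Y chromosome had no read. Its closest liver library was that of cow 4, the most alike of all pairs of livers, and both were kept as samples because their counts differed by more than sampling noise, which does not show that they came from different animals. The fat library of bull 5 stood apart in another way, with USP9Y at 1.78 CPM against 28.1 to 34.1 CPM in the other male fat samples. Its XIST was not at the level of females, at 1.39 CPM against at least 315.9 CPM in the fat of cows. The hepatocyte marker sum of 441.2 CPM was that of this library. Values without these libraries are given beside the liver and fat results that they touch.

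How many of the 49 genes were detected differed between the tissues, and so did the depth of the libraries. The shallowest held 5173092 reads on genes in muscle (bull 3) and 9196932 in the pituitary gland (cow 3). At least 3 reads were found in all 10 animals for 25 liver genes, 26 fat genes, 16 muscle genes and 22 pituitary genes. No animal reached 3 reads for 5, 5, 7 and 9 genes, respectively. In the pituitary gland the undetected genes were CCL20, CCR4, CCR9, CXCL13, CXCR1, CXCR3, CXCR5, XCL1 and XCR1, mostly receptors and ligands of lymphocytes and dendritic cells. At this depth the genes were not detectable there, which is not the same as absent.

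**Figure D1:**
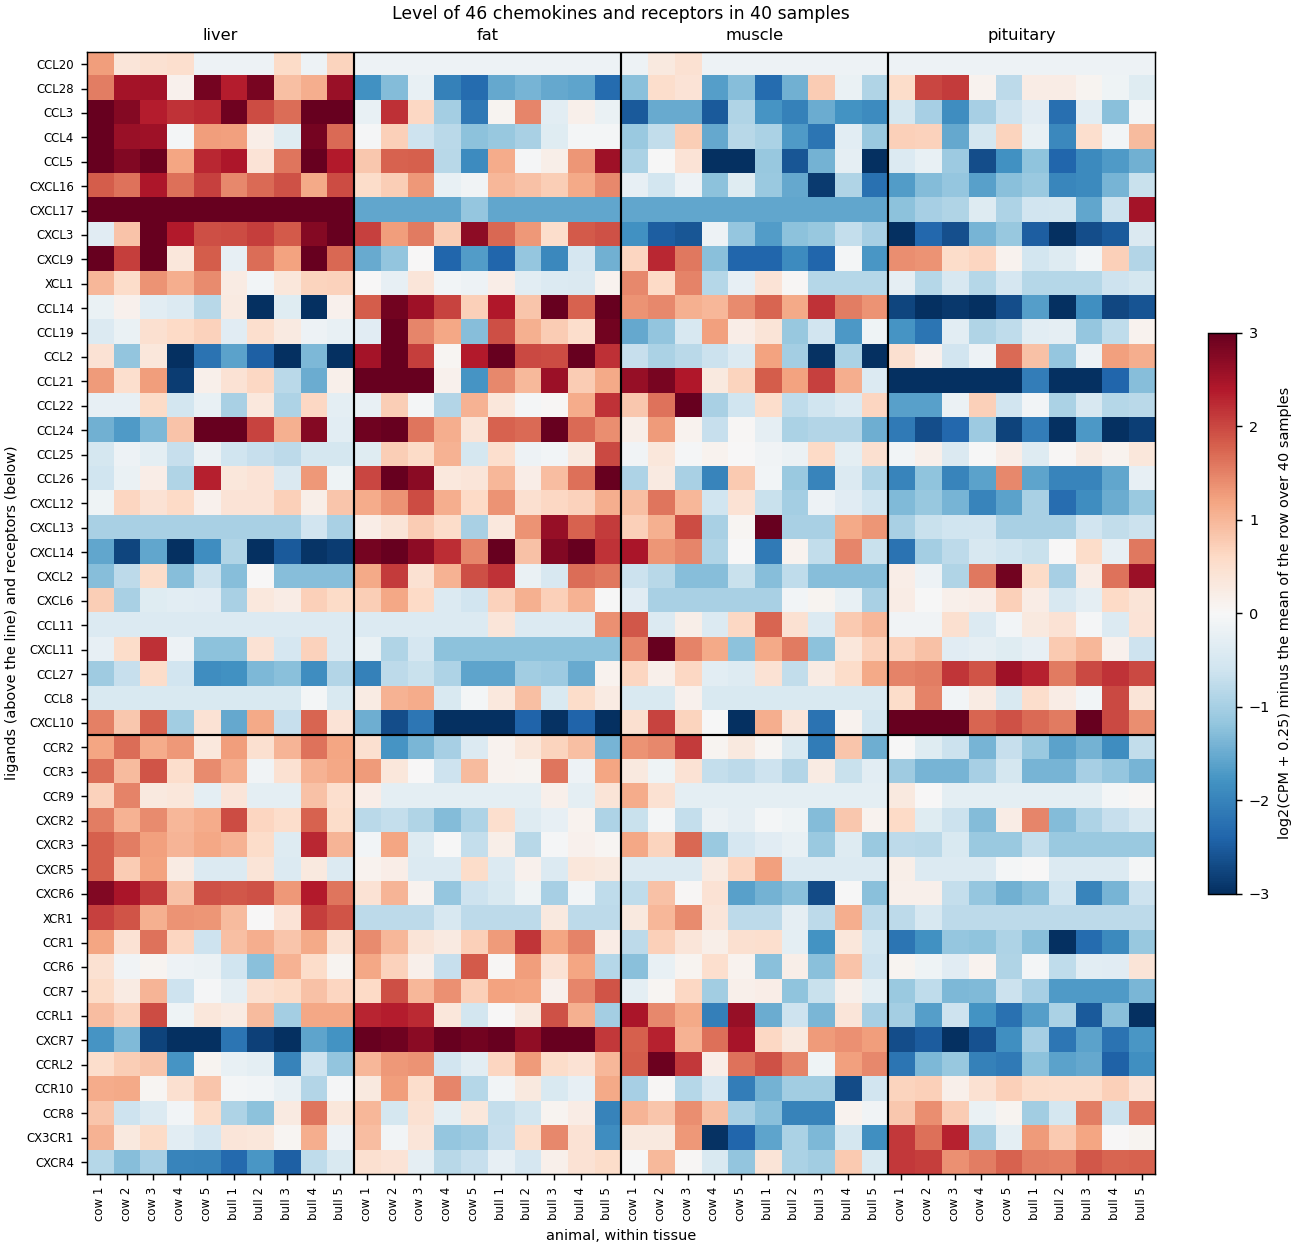
Each row is 1 of 46 of the genes tested and each column 1 of the 40 samples, ordered by tissue and animal; colour shows log2(CPM + 0.25) minus the mean of that row, limited at 3 in either direction, with 28 ligands above the horizontal line and the receptors below. All 10 livers exceed every other sample for CXCL17 and all 10 pituitary samples do so for CXCR4, while CCL14, CCL24 and CCL21 have their lowest medians in the pituitary gland (2.62, 0.956 and 0.141 CPM).

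Chemokine genes were more often higher in liver or fat than in the pituitary gland, and in these contrasts their share of calls lay well above that of all genes. Tissues were compared with the edgeR quasi-likelihood test on all 40 samples, with sex as a term and the adjusted P-value taken over 13148 genes. Against the pituitary gland, 28 of the 47 chemokine genes were higher in liver and 9 lower, where 29.4% of all genes tested were called higher and 35.1% lower. Likewise 26 were higher in fat than in the pituitary gland and 7 lower, against 31.8% and 32.8% of all genes. Their median log2 difference was 1.95 for liver minus pituitary gland and 1.42 for fat minus pituitary gland, where that of all genes was -0.12 and -0.02.

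The other pairs of tissues differed less from the background. In muscle against pituitary gland 18 genes were higher in muscle and 12 in the pituitary gland (31.5% and 32.5% of all genes). Between liver and muscle 19 were higher in liver and 11 in muscle (28% and 34%). Between fat and muscle 20 were higher in fat and 8 in muscle (32.8% and 26.8%). Between liver and fat the split was even, with 17 genes higher in liver and 16 in fat (28.9% and 35.4%). These splits depend on the scaling where liver or muscle is set against fat or the pituitary gland: with library sizes alone in place of TMM factors, the median of all genes moved by -0.83 (log2) for liver minus pituitary gland, -0.70 for liver minus fat, 0.78 for fat minus muscle and -0.92 for muscle minus pituitary gland. The counts then became 24 higher and 13 lower for liver against pituitary gland, 12 and 23 for liver against fat, and 28 and 4 for fat against muscle. The direction of no called chemokine gene turned.

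**Figure D2:**
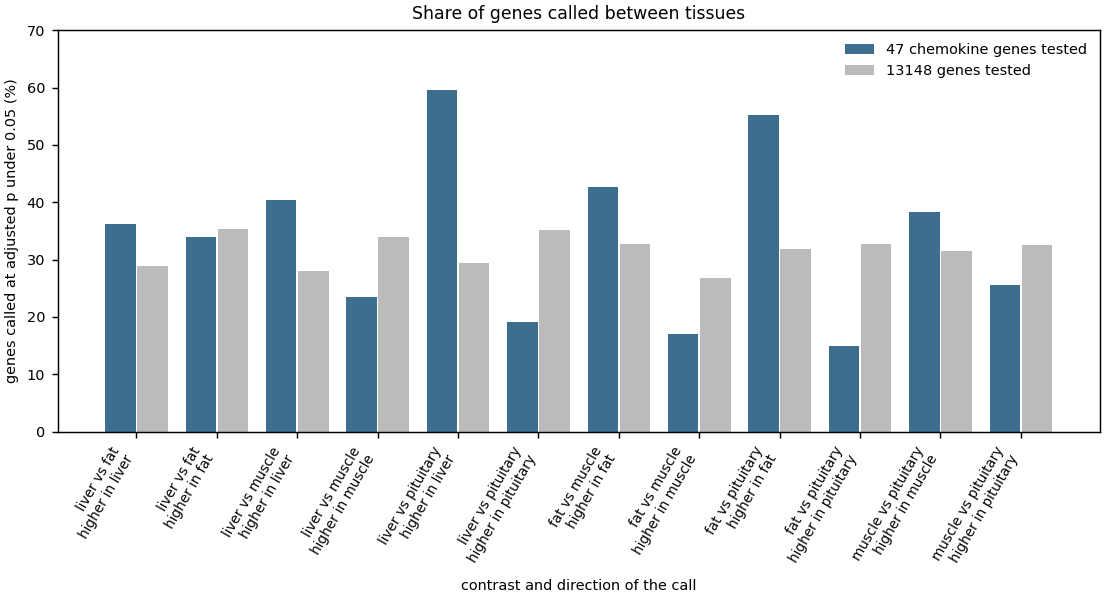
Bars give the percentage of genes called at an adjusted P-value under 0.05 (vertical axis) for each pair of tissues and direction, in dark for the 47 chemokine genes and in grey for all 13148 genes tested. The dark bars stand highest for liver over pituitary gland (59.6%) and fat over pituitary gland (55.3%), above the grey bars of 29.4% and 31.8%.

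Levels of leukocyte markers also differed between the tissues. PTPRC, the surface phosphatase of all leukocytes, had medians of 102.8 CPM (liver), 26.0 (fat), 19.8 (muscle) and 6.8 (pituitary gland). The summed level of 7 T cell markers had medians of 36.9, 16.7, 11.2 and 2.75 CPM, and that of 5 monocyte and macrophage markers 1290, 701.6, 226.3 and 104.6 CPM. In the same order of tissues, the 3 neutrophil markers summed to medians of 22.9, 46.1, 5.22 and 2.73 CPM, the 3 B cell markers to 3.63, 1.5, 0.792 and 0.889 CPM and the 3 NK cell markers to 10.7, 8.94, 1.78 and 1.84 CPM. The part of these cells in the differences of chemokine genes was not tested.

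In liver, 12 of the 47 chemokine genes (13.6% of all genes) were higher than in each of the other tissues: the ligands CCL3, CCL4, CCL5, CCL20, CCL28, CXCL9, CXCL16 and CXCL17 and the receptors CXCR2, CXCR3, CXCR6 and XCR1. CXCL17, a mucosal chemokine, had the widest lead, with 6.44, 7.84 and 14.2 CPM as the lowest, median and highest of 10 livers. In fat and muscle no animal had 3 reads of it, and in the pituitary gland its median was 0.183 CPM, a 19.1-fold difference (log2 4.25, SE 0.57, adjusted P = 3.16e-08). The fold depended on the pituitary gland of bull 5 with 3.91 CPM, and without bull 5 the log2 difference was 5.62 (adjusted P = 3.2e-14). CCL3, a ligand of CCR1, ranged from 4.35 to 19.6 CPM with a median of 8.33 in liver, 5.5-fold above fat (log2 2.46, SE 0.446, adjusted P = 6.2e-06), and 1 fat sample, of cow 2 with 6.3 CPM, lay inside the liver range. CCL4, its close relative, was more spread in liver, from 0.644 to 9.69 CPM with a median of 2.98. The 3 livers of cow 4, bull 2 and bull 3 lay among the pituitary samples, which reached 1.96 CPM, and the fold over the pituitary gland was 3.93 (log2 1.97, SE 0.479, adjusted P = 0.000378). CCL5, another ligand of CCR1 made by T and NK cells, had a median of 10.7 CPM in liver against 3.83 in fat, 2.79-fold apart.

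Some receptors of the liver group had their ligands beside them there and others did not. CXCR6, the receptor of CXCL16 on T and NK cells, had 2.67 to 10.7 CPM in liver with a median of 5.74, 5.19-fold above fat (log2 2.38, SE 0.349, adjusted P = 5.27e-07). Its ligand CXCL16 was also highest in liver, at a median of 149.9 CPM against 77.9 in fat, 1.93-fold apart. CXCR3, the receptor of CXCL9, CXCL10 and CXCL11, had a median of 0.907 CPM in liver, 3-fold above muscle, and was under 3 reads in every pituitary sample. XCR1, carried by cross-presenting dendritic cells, had a median of 0.831 CPM in liver and 0.19 in muscle. For its ligand XCL1, with medians of 0.47, 0.166 and 0.171 CPM in liver, fat and muscle, liver passed against fat (adjusted P = 0.00409) and not against muscle (0.135). CCR1, a receptor of CCL3 and CCL5, did not pass between liver and fat, with medians of 9.61 and 11.4 CPM (adjusted P = 0.426).

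Not all of these calls stood on the same footing. CCL20, the ligand of CCR6, rested on 11 reads over 10 livers, with 3 reads or more in 1 liver alone, and its call was lost without the liver of bull 3 (adjusted P = 0.0513), without cow 1 (0.236), cow 4 (0.0674), bull 2 (0.0512), bull 3 (0.0644) or bull 5 (0.0604) and with the animal as a block (0.1247). CXCR2, CCL28, CCL5 and CXCL16 were no longer above every other tissue with library sizes alone (adjusted P = 0.0683, 0.132, 0.155 and 0.397 against the next tissue).

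**Figure D3:**
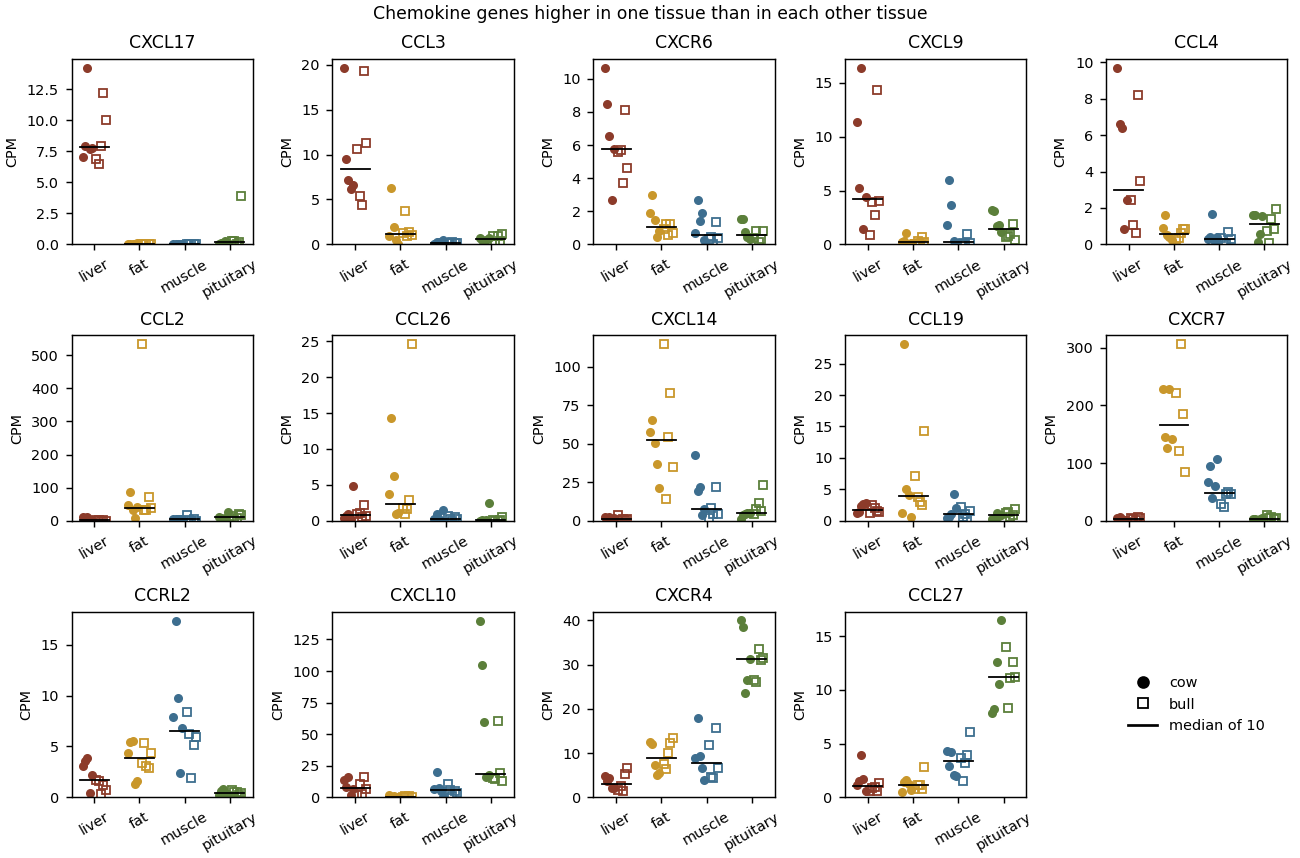
Each panel plots the CPM of 1 gene (linear axis from 0) in the 4 tissues, with filled circles for 5 cows, open squares for 5 bulls and a line at the median of 10 animals; the panels hold up to 5 genes per tissue that were higher there than in each other tissue. The livers lie clear of all other samples for CXCL17 alone of the 5 liver genes shown, and 1 fat sample (532.5 CPM) stands far above the rest for CCL2.

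In fat, 8 chemokine genes (11.4% of all genes) were higher than in each other tissue: CCL2, CCL14, CCL19, CCL26, CXCL12, CXCL14, CCR7 and CXCR7. CXCR7, the scavenging receptor of CXCL12, had 84 to 305.9 CPM in fat with a median of 165.3, against 48.1 in muscle, 3.96 in the pituitary gland and 3.28 in liver. No liver or pituitary sample, at most 9.38 CPM, came near this range, while 2 muscle samples, of cow 2 and cow 5, lay inside it, and the difference from muscle was 3.17-fold (log2 1.66, SE 0.282, adjusted P = 3.42e-06). CXCL14, a chemokine of epithelia and adipose tissue, had 14.2 to 114.6 CPM in fat with a median of 52.2, 3.79-fold above muscle (log2 1.92, SE 0.447, adjusted P = 0.000414), and was lowest in liver at a median of 1.02 CPM. CCL2, the main attractant of CCR2-bearing monocytes, had a median of 39.9 CPM in fat against 10 in the pituitary gland, but spread from 8.24 to 532.5 CPM. Its fold over the pituitary gland was 7.46 (log2 2.9, SE 0.56, adjusted P = 5.91e-05), and log2 1.89 without bull 1, whose fat held the highest level (adjusted P = 0.000762). CCL14, a ligand of CCR1, had medians of 89.9 CPM in fat, 49.6 in muscle, 14.95 in liver and 2.62 in the pituitary gland, and all 10 fat samples exceeded all liver samples.

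CCL19 and its receptor CCR7, which draw dendritic cells and naive T cells into lymph nodes, were both highest in fat. CCL19 had a median of 3.94 CPM in fat against 1.79 in liver (log2 1.86, SE 0.469, adjusted P = 0.000786), and log2 1.18 without cow 2, whose fat had 28.1 CPM (adjusted P = 0.0186). CCR7 had 0.641 to 2.86 CPM in fat with a median of 1.62, against 0.931 in liver, 0.51 in muscle and 0.0752 in the pituitary gland. CCL21, the other ligand of CCR7, had similar medians in fat (9.04 CPM) and muscle (10.8 CPM) and a difference that did not pass the test (log2 0.88, SE 0.609, adjusted P = 0.19). Its level was highest in fat of cow 2 with 83.2 CPM. CCL26, a ligand of CCR3 on eosinophils, had a median of 2.29 CPM in fat, with 24.6 CPM in bull 5. That library also had the highest sum of the 3 measured neutrophil markers, 557.5 CPM against a median of 46.1 CPM over the fat samples, whose part in the level was not tested. Without the fat of bull 5, CCL26, CCR7 and CXCL12 were no longer higher in fat than in each other tissue (adjusted P against liver 0.0964, 0.0951 and 0.0796), and the log2 difference of CCL26 was 1.32 without bull 5 and 2.92 without cow 5. CCR7 also lost this without cow 2 (0.0723) or bull 1 (0.0558), CXCL12 without cow 3 (0.0773) and with RLE factors (0.0539), and CCL26 without bull 5 (0.0902). With library sizes alone, CCL21, CCL24, CCR1, CCR6 and CCRL1 joined the genes highest in fat.

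Muscle and pituitary gland led for few chemokine genes. Muscle led for 1 gene (13% of all genes), CCRL2, an atypical receptor that binds chemerin. It had 1.85 to 17.4 CPM in muscle with a median of 6.51, against 3.84 in fat (log2 0.90, SE 0.342, adjusted P = 0.0235), and the ranges of the tissues overlapped. That call was lost with library sizes alone (log2 0.16, adjusted P = 0.725) and without cow 2 (0.0698), bull 1 (0.0601) or bull 5 (0.0707). The pituitary gland led for 3 genes (15.5% of all genes). CXCR4, the signalling receptor of CXCL12, had 23.6 to 40.01 CPM there with a median of 31.2, above every sample of the other tissues, of which the highest had 17.9 CPM in muscle. It was 3.36-fold above fat (log2 1.75, SE 0.261, adjusted P = 3.37e-07). CCL27, best known as a skin chemokine and a ligand of CCR10, had 7.89 to 16.5 CPM in the pituitary gland with a median of 11.2, again above every other sample (3.34-fold over muscle, log2 1.74, SE 0.288, adjusted P = 3.02e-06). CXCL10, an interferon-induced ligand of CXCR3, had 12.5 to 139.9 CPM with a median of 18.4, against 7.23 in liver, 5.48 in muscle and 0.443 in fat (4.96-fold over liver, log2 2.31, SE 0.52, adjusted P = 0.000166). Fat had at most 1.49 CPM. The muscle of cow 2 (19.6 CPM) and the livers of cow 3 (16.3 CPM), bull 4 (16.0 CPM) and cow 1 (13.7 CPM) lay inside the pituitary range.

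Ligands and the receptors that bind them did not always share their highest tissue. CXCL12 was highest in fat (median 148.3 CPM) and lowest in the pituitary gland (25.5 CPM), where its receptor CXCR4 was highest and its scavenger CXCR7 had a median of 3.96 CPM. CXCL10 was highest in the pituitary gland, where CXCR3 was not detected above 3 reads in any animal. CXCL9 and CXCL11, which bind CXCR3 as well and neighbour CXCL10 in the RefSeq annotation, had other orders: CXCL9 had its highest median in liver (4.22 CPM, against 1.42 in the pituitary gland, adjusted P = 0.00108), and CXCL11 in muscle (1.04 CPM, against 0.32 in the pituitary gland, adjusted P = 0.0486, and 0.0575 with the animal as a block). By fitted level all 3 were lowest in fat, although the median of CXCL9 was 0.219 CPM there and 0.217 CPM in muscle. CCL27 was highest in the pituitary gland and CCL28, the other ligand of CCR10, in liver (6.44 CPM against 1.15 in the pituitary gland), while the differences of CCR10 between liver, fat and pituitary gland did not pass, with medians of 1.36, 1.71 and 2.08 CPM (adjusted P from 0.413 to 0.819), and was lowest in muscle (0.54 CPM).

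The remaining genes are given by their levels in each tissue. CCL25, a ligand of CCR9, had 5.16 to 8.17 CPM in liver and medians of 12.1, 8.92 and 9.46 CPM in fat, muscle and pituitary gland. CCR9 itself had a median of 0.142 CPM in liver and of 0 in each other tissue. CXCL3, a neutrophil attractant, was high in liver (median 145.8 CPM) and fat (112.1) and lower in muscle (15.6) and pituitary gland (6.17). CXCL2 had at most 4.24 CPM and CXCL6 at most 0.845 CPM in any sample. Related genes, such as CXCL2 with CXCL3, CCL3 with CCL4 and CXCR1 with CXCR2, may exchange or lose reads. Reads that aligned to more than 1 place were not counted, and the sequences were not compared here. CCL24, a ligand of CCR3, had medians of 22.0 CPM in fat and 13.1 in liver and was lowest in the pituitary gland (0.956). CCR3 had medians of 1.12 CPM in liver and 0.022 in the pituitary gland. CCR2, the receptor of CCL2 and CCL8, had a median of 2.18 CPM in liver and 0.317 in the pituitary gland. CX3CR1, the fractalkine receptor of monocytes and microglia, had its highest median in the pituitary gland (10.4 CPM), and its difference from muscle passed the test (log2 -1.65 for muscle minus pituitary gland, SE 0.442, adjusted P = 0.00162). The difference from fat did not (0.0652), while it did in DESeq2 (0.0436) and with the animal as a block (0.00736). CCR6 and CCR8 had medians between 0.262 and 1.14 CPM in every tissue. CCL8, CCL11, CCL22, CXCL13 and CXCR5 had medians of at most 0.665 CPM in every tissue, with single high samples such as CCL22 in the muscle of cow 3 (11.3 CPM).

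Between the sexes, chemokine genes passed the test in muscle alone. In each tissue model M1, with sex as its only term, was fitted to 10 samples and tested by the edgeR likelihood ratio test. In muscle 2 of the 47 genes passed, CCRL1 and CXCL12, both lower in bulls, against 0.517% of all genes. The quasi-likelihood test called 0 (0.0532% of all genes) and DESeq2 called the same 2 genes (0.677%). In liver, fat and pituitary gland 0 chemokine genes were called (0.175%, 0.114% and 0.745% of all genes), and 0 by the quasi-likelihood test (0.00761%, 0.0228% and 0.0913%) or DESeq2 (0.152%, 0.213% and 1.03%). At an unadjusted P-value under 0.05 there were 4 in liver (7.45% of all genes), 6 in fat (6.88%), 14 in muscle (11%) and 10 in the pituitary gland (9.27%).

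CCRL1 (ACKR4 in RefSeq), which scavenges CCL19, CCL21 and CCL25, had 22.1, 10.8, 8.76, 0.739 and 24.7 CPM in the muscle of cows 1 to 5 and 1.22, 2.41, 1.32, 4.97 and 1.8 CPM in that of bulls 1 to 5. Cow 4 was below every bull and the other 4 cows above them all. The mean was 13.4 ± 9.9 CPM in cows and 2.34 ± 1.54 CPM in bulls (SD, n = 5 each), and the log2 fold change of males to females was -2.49 (SE 0.642, adjusted P = 0.043). CXCL12 had 129.1, 212.6, 139.6, 46.0 and 94.5 CPM in cows and 43.8, 34.0, 62.7, 54.8 and 46.0 CPM in bulls. Again 4 cows stood above all bulls and cow 4 lay among them. The means were 124.4 ± 61.4 and 48.3 ± 10.9 CPM (SD, n = 5 each), with a log2 fold change of -1.36 (SE 0.365, adjusted P = 0.0498).

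Both calls depended on the test and on the animals included, while the log2 fold changes stayed between -2.96 and -2.19 for CCRL1 and between -1.56 and -1.08 for CXCL12 on leaving out an animal. The adjusted P-value was 0.296 for both in the quasi-likelihood test. It ran from 9.34e-07 to 0.166 for CCRL1 and from 5.24e-05 to 0.259 for CXCL12 when 1 animal was left out. Of the 10 animals left out in turn, CCRL1 kept its call without cow 4 (9.34e-07) and bull 4 (0.0213) and lost it without each of the other 8, and CXCL12 kept it without cow 4 (5.24e-05) and cow 5 (0.0312) and lost it without each of the other 8. CXCL12 also missed the threshold with RLE factors (0.0519) and library sizes alone (0.0552).

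The partners of CXCL12 did not all move with it. CXCR7 had 67.0, 95.7, 39.5, 60.3 and 107.5 CPM in the muscle of cows and 29.2, 23.4, 46.5, 49.7 and 45.7 CPM in bulls, so that cow 3 lay inside the range of bulls (log2 fold change -0.90, SE 0.327, adjusted P = 0.211). CXCR4 ranged from 3.81 to 17.9 CPM in cows and from 4.23 to 15.6 CPM in bulls (log2 fold change -0.13, SE 0.47, and from -0.47 to 0.25 on leaving out an animal).

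In muscle the tested chemokine genes lay below 0 on balance: 36 had a lower and 10 a higher fitted level in bulls, with a median log2 fold change of -0.76 where that of all genes was -0.04. The share of all genes with a lower fitted level was not counted. Some of the 36 rest on few reads, such as CCL20 and CCL8 with 2 and 1 over the 10 muscles. All 14 chemokine genes with an unadjusted P-value under 0.05 were lower in bulls, which 7.72% of all genes were, among them CCL22, CCL24, CCR2, CCR8, CCR9, CCRL1, CXCL9, CXCL12, CXCL16, CXCR3, CXCR6, CXCR7 and XCL1. Apart from CCRL1 and CXCL12 none passed the adjustment. CXCL16 had 18.5 to 39.7 CPM in cows and 5.82 to 23.4 CPM in bulls (log2 fold change -1.11, SE 0.369, adjusted P = 0.152). CCL24 had 3.99 to 16.2 CPM in cows and 2.21 to 5.38 CPM in bulls (log2 fold change -1.23, SE 0.42, adjusted P = 0.173). CXCL9 had 1.79, 5.97, 3.68, 0.296 and 0 CPM in cows 1 to 5 and at most 0.994 CPM in bulls. CX3CR1 had 6.34, 6.31, 12.9, 0.443 and 0.789 CPM in cows and 1.24 to 3.48 CPM in bulls (log2 fold change -1.35, SE 0.698, adjusted P = 0.475). The number of genes called depended on the animals included: it was 7 without cow 4, 3 without cow 5, 1 without bull 4 and 0 without any of the other 7 animals.

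**Figure D4:**
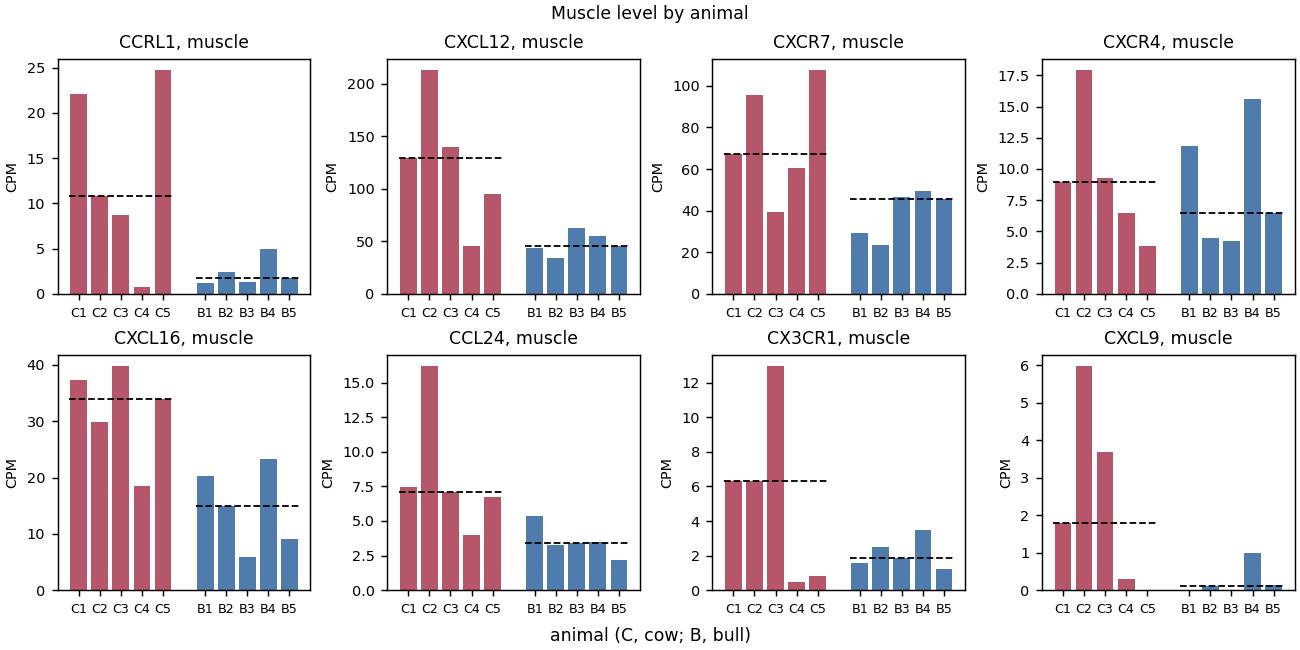
Bars give the muscle CPM (linear axis from 0) of 8 chemokine genes in cows 1 to 5 (C) and bulls 1 to 5 (B), 1 library each, and dashed lines mark the median of each sex. For CCRL1 and CXCL12, 4 cows exceed every bull and cow 4 does not (0.739 and 46.0 CPM), while for CX3CR1 and CXCL9 cows 1 to 3 stand above the other animals.

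Leukocyte markers in muscle differed in direction by list. The 7 T cell markers summed to 21.8, 23.5, 41.1, 7.54 and 5.39 CPM in cows 1 to 5 and to 14.9, 4.83, 5.02, 15.4 and 5.25 CPM in bulls, and all 7 had a lower fitted level in bulls, 3 of them at an unadjusted P-value under 0.05. The 5 monocyte and macrophage markers summed to 213.9 to 359.2 CPM in cows and 58.2 to 240.3 CPM in bulls, and 4 of 5 were lower at an unadjusted P-value under 0.05, of which CD14 also passed the adjustment (log2 fold change -1.40, adjusted P = 0.0233). All 3 measured B cell markers and all 3 neutrophil markers had a higher fitted level in bulls, with median log2 fold changes of 1.18 and 0.80. The B cell sum was 13.55 CPM in bull 1, at most 0.994 CPM in the other bulls and 0.526 to 2.41 CPM in cows. Its median was lower in bulls (0.553 CPM) than in cows (1.04 CPM), so the higher fitted level rested on bull 1. The 3 NK cell markers summed to 0.591 to 4.44 CPM in cows and 0.691 to 2.485 CPM in bulls, and 2 of them had a lower fitted level in bulls. PTPRC had 11.4 to 53.4 CPM in the muscle of cows and 6.35 to 26.1 CPM in that of bulls, and the part of these cells in the differences between the sexes was not tested. The muscle of cow 5, highest for CCRL1 and CXCR7, also had the highest adipocyte marker sum. That sum was 308.2 CPM, against 11.9 to 105.7 CPM in the other muscles. The 3 muscle fibre markers summed to 65470, 58960 and 68480 CPM in cows 1 to 3 and to 78850 to 143700 CPM in the other animals. The part of either sum in the chemokine levels of muscle was not tested.

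In the pituitary gland CXCL14 had the lowest P-value of the chemokine genes with at least 10 reads on average in a sex. CXCL14 had 1.45, 3.65, 4.35, 5.38 and 4.99 CPM in cows and 4.69, 7.67, 11.4, 6.39 and 23.5 CPM in bulls. Only bull 1 lay within the range of cows, and the difference did not pass (log2 fold change 1.43, SE 0.439, adjusted P = 0.103, and 0.0391 without bull 1, with 0.305 as the highest value on leaving out an animal). CXCL10 had 139.9, 104.6, 59.4, 16.1 and 17.98 CPM in cows and 15.6, 14.1, 60.2, 18.8 and 12.5 CPM in bulls. Cows 1 to 3 and bull 3 stood apart from the other animals, and the gene passed without bull 3 only (log2 fold change -2.15, adjusted P = 0.0222, against 0.324 with all animals). CX3CR1 showed the same 3 cows on top, with 23.3, 16.6 and 26.5 CPM in cows 1 to 3, 2.42 and 4.17 CPM in cows 4 and 5 and 5.2 to 12.8 CPM in bulls. CCL21, with at most 1.3 CPM, passed without bull 2 only (adjusted P = 0.0139). The T cell markers of the pituitary gland summed to 9.72, 7.54 and 5.87 CPM in cows 1 to 3 and to at most 3.33 CPM in the other animals, and of these markers CD2 passed the test between the sexes (log2 fold change -2.21, adjusted P = 0.0196). The 5 monocyte and macrophage markers did not follow this order, with 108.2, 97.1, 212.0, 141.1 and 130.9 CPM in cows 1 to 5. In bulls they summed to 68.1 to 244.9 CPM, highest in bull 5. PTPRC had 20.3, 14.02 and 14.6 CPM in cows 1 to 3 and at most 13.96 CPM in the other animals. The 3 pituitary hormones summed to 78140, 122200 and 112000 CPM in cows 1 to 3 and to 141900 to 269100 CPM in the other animals. The part of any of these in the levels of CXCL10 and CX3CR1 was not tested.

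In fat CXCL13 and CCL21 led, and neither passed. CXCL13, the B cell attractant bound by CXCR5, had 0 to 0.574 CPM in cows and 0.362 to 2.75 CPM in bulls (log2 fold change 2.04, SE 0.68, adjusted P = 0.382, and 1.95 with 0.411 without bull 5). CCL21 had 46.7, 83.2, 64.2, 3.89 and 0.866 CPM in cows and 6.23 to 22.3 CPM in bulls, so that cows 1 to 3 lay above and cows 4 and 5 below all bulls (log2 fold change -1.90, SE 0.818, adjusted P = 0.639, and -1.81 with 0.616 without bull 5). CCL21 is made by lymphatic vessels and lymph node stroma, and the 3 lymphatic markers measured summed to 104.7, 65.8, 117.1, 78.9 and 107.8 CPM in the fat of cows 1 to 5 and 29.99 to 215.7 CPM in that of bulls. Most of this sum was LYVE1, with a mean of 94.1 CPM in fat against 10.96 for PDPN and 0.944 for PROX1. The part of lymphatic vessels in the level of CCL21 was not tested. CCL2 had 8.24 to 86.6 CPM in cows and 31.8 to 73.2 CPM in 4 bulls, with 532.5 CPM in bull 1.

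In liver CCR10 and CCL2 led. CCR10, a receptor of CCL27 and CCL28, was the only chemokine gene with a tissue in which the labelled sexes did not overlap. It had 3.23, 3.27, 1.41, 1.97 and 2.6 CPM in cows and 1.29, 1.25, 1.13, 0.624 and 1.32 CPM in bulls (log2 fold change -1.15, SE 0.419, adjusted P = 0.32, and -1.17 with 0.423 without bull 3). The liver of bull 3, which went against its sex label, is counted as male here and had 1.13 CPM, below every cow. By the same labels 0.548% of all genes did not overlap in liver. The share was 1.29% for fat, 1.65% for muscle and 1.34% for the pituitary gland, where 0 chemokine genes did so. CCL2 had 10.7, 3.37, 10.1, 0.281 and 1.5 CPM in the liver of cows and 0.483 to 2.97 CPM in bulls (log2 fold change -1.70, SE 0.724, adjusted P = 0.521, and -1.50 with 0.757 without bull 3). CCL24 separated the cows in the other direction, with 2.26, 1.84 and 2.43 CPM in cows 1 to 3, 12.1 and 60.8 CPM in cows 4 and 5 and 5.19 to 58.8 CPM in bulls. It was the only gene called in liver when an animal was left out, namely cow 5 (log2 fold change 2.72, adjusted P = 0.0328, against 0.89 and 0.904 with all animals and 1.07 and 1 without bull 3).

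**Figure D5:**
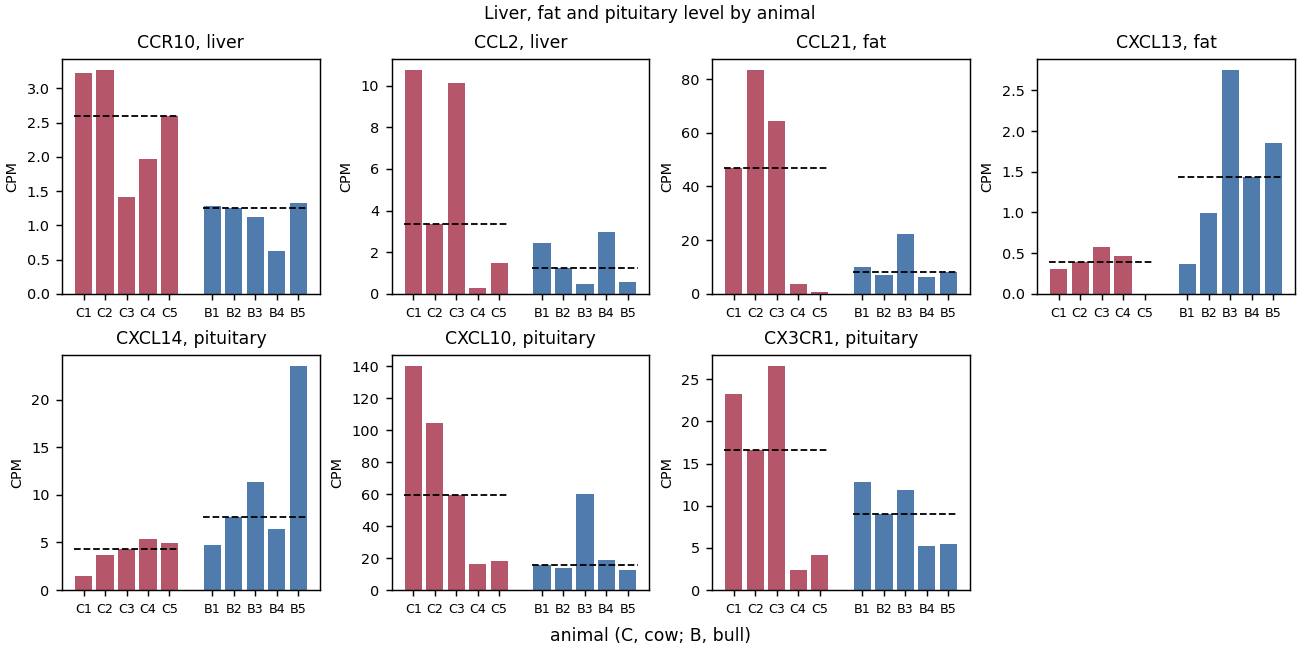
Bars give the CPM (linear axis from 0) of genes with the lowest P-values for sex in liver, fat and pituitary gland, and of CXCL10 and CX3CR1 in the pituitary gland, in cows 1 to 5 (C) and bulls 1 to 5 (B), with dashed lines at the median of each sex. CCR10 in liver is the only panel without overlap of the labelled sexes, and cows 1 to 3 stand above cows 4 and 5 for CCL21, CXCL10 and CX3CR1.

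In liver and muscle, but not in fat or the pituitary gland, cows 1 to 3 held the highest level for a clearly larger share of chemokine genes than of all genes. Of the chemokine genes with at least 10 reads on average in a tissue, a cow of these 3 was the highest of the 10 animals for 20 of 32 in liver (62.5%), 15 of 23 in muscle (65.2%), 9 of 31 in fat (29%) and 8 of 24 in the pituitary gland (33.3%). Genes already described above for these 3 cows, such as CCL21, CXCL10 and CX3CR1, are counted here too, so the counts are not independent of the choice of cows. Among all genes with the same number of reads the share was 38.2% in liver, 32.4% in muscle, 28.1% in fat and 36.2% in the pituitary gland. By animal, cows 1, 2 and 3 were highest for 7, 4 and 9 chemokine genes in liver (8.9, 19.7 and 9.6% of all genes). In muscle they were highest for 1, 9 and 5 (12.8, 11.3 and 8.4%), so the excess was not shared by all 3 cows. The animal numbers in the labels of cows 1 to 3 share at least their first 7 digits, while no other pair of animals shares more than 6, and what these digits stand for is not stated. Unique reads that fell outside genes made up medians over tissues of 46.0, 41.3 and 50.1% in cows 1 to 3 and 36.6 to 41.0% in the other animals. The part of this in the levels was not tested.

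Across tissues, model M2 with sex and tissue as terms on all 40 samples called 0 chemokine genes (1.69% of all genes), as did the quasi-likelihood test (0.586%) and DESeq2 (2%). At an unadjusted P-value under 0.05 there were 11 (16.7% of all genes), among them CCR10, CCRL1, CXCL9, CXCL10, CXCL11, CXCL12, CXCR3, CXCR6 and XCL1, lower in males, and CXCL13, higher in males. The lowest was CCRL1 (log2 fold change -1.01, SE 0.328, adjusted P = 0.0917), with a lower fitted level in bulls in all 4 tissues, followed by CXCR6 (-0.75, SE 0.262, adjusted P = 0.0978) and XCL1 (-0.97, SE 0.367, adjusted P = 0.102). The 4 samples of an animal are not independent for sex, and with the animal as a block in limma voom 0 chemokine genes were called, with adjusted P-values of 0.506, 0.523 and 0.473 for these 3. Without the liver of bull 3 the adjusted P-values of M2 were 0.119, 0.129 and 0.13. The count depended on the animals included, with 5 called without cow 4, 5 without cow 5 and 1 without bull 4, among them CCRL1 (0.0122 without cow 4 and 0.0272 without cow 5) and CXCL9 (0.0242, 0.0338 and 0.0254).

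Whether the sex difference of a gene itself differed between tissues was asked with a sex by tissue term, which called 0 chemokine genes (0.335% of all genes), and 0 of all genes by the quasi-likelihood test (0%). At an unadjusted P-value under 0.05 there were 11 (8.58% of all genes), led by CCL21 (adjusted P = 0.123), CXCL12 (0.137), CCR2 (0.156) and CXCL16 (0.157), which had 0.126, 0.159, 0.157 and 0.157 without the liver of bull 3. CXCL12 and CCL21 passed without cow 4 (0.00887 and 0.0344), CCL21 and CCL24 without cow 5 (0.0218 and 0.00855), and CCR2 without the fat of bull 5 (0.046), where CCL21 and CXCL12 had 0.109 each and CXCL16 0.203. These fits treat the 4 samples of an animal as independent. With the animal as a block beside the sex by tissue term, chosen after seeing the data, 0 chemokine genes were called by either test, with adjusted P-values in the likelihood ratio test of 0.0689 for CXCL16, 0.0835 for CXCL12 and 0.41 for CCRL1.

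Other genes of the pathway were counted too, among them G protein subunits, arrestins and inducing cytokines. Of the 25 partners measured of 29 listed, 10 were higher in liver and 7 in the pituitary gland (29.4% and 35.1% of all genes), 15 higher in fat and 1 in muscle (32.8% and 26.8%), and 11 higher in fat and 4 in the pituitary gland (31.8% and 32.8%). The counts were 5 and 8 between liver and fat (28.9% and 35.4%), 10 and 5 between liver and muscle (28% and 34%), and 8 and 11 between muscle and pituitary gland (31.5% and 32.5%). Between the labelled sexes 1 partner passed in 1 tissue, where 0.175% of all genes passed and 0.548% did not overlap. This was ARRB2, the arrestin that uncouples and internalises chemokine receptors. It had 8.34 to 13.7 CPM in the livers of cows and 4.0 to 5.47 CPM in those of bulls, without overlap (log2 fold change -1.17, SE 0.279, adjusted P = 0.0242 in the likelihood ratio test, 0.00794 in DESeq2, 0.366 in the quasi-likelihood test, and 0.0313 without bull 3). The liver of bull 3, counted as male against its XIST and Y-linked reads, had 5.32 CPM.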

How the data were processed

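Read counts of 40 libraries, 5 cows and 5 bulls in each of 4 tissues, were analysed. Reads were cleaned with Trimmomatic and placed on bosTau7 with TopHat2 and Bowtie2 by the authors, who counted unique alignments with HTSeq and deposited raw counts per gene symbol. Strand and counting mode are not given in the sources used here, no molecular identifiers are described, and floors cover counting error only. A nameless line (0.0737 to 1.58% of unique reads) was dropped.

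Every gene with a read in any sample was tested in edgeR 4.0.16 (R 4.3.3; prior count 0.125, Benjamini-Hochberg threshold 0.05). M1 and M2 used TMM factors and the likelihood ratio test, tissue contrasts the quasi-likelihood test. DESeq2 1.42.0, limma 3.58.1 voom, RLE factors, filterByExpr, library sizes alone and, for the interaction, the animal as a block (both chosen after seeing the data), and leaving out each animal were alternatives. Scripts were tested on simulated data. The tissues come from the same animals. Deviations of an animal from its group means correlated between tissues at 0.169 on average (above 0.1 in 38 of 60 pairs). Between other animals of the same sex the average was -0.0421. Deviations from a group mean cancel out within the group, which ties this average to that of the same animals. It is therefore not an independent comparison.

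Genes named in the text were those called for sex, in each tissue the 2 with the lowest M1 P-value among those with at least 10 reads on average in a sex, up to 5 per tissue that were higher than in each other tissue, and ligands with their receptors. Others were named after their values were seen, and 1 gene that is counted is not reported here. Genes and lists were chosen with earlier results of these data known. All 49 symbols matched RefSeq (ARS-UCD2.0), 46 by symbol and 3 by synonym, whose coordinates were not used. Cows and bulls of 1 number are not paired.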

Additional observations from a re-analysis of the deposited data

Results flagged for a closer look

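A sample stood far from the other 4 of its sex and tissue in 16 of the 142 groups looked at, by Dixon's gap over range above 0.71, for 28 named chemokine genes in groups with at least 10 reads on average. For normally distributed values chance gives this in about 1 of 20 groups. The gaps were taken on CPM without a log scale, which need not follow that distribution, so the count is not shown to exceed chance. In each case the sample was the highest. Their part in any result was not tested beyond leaving out the animal.

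In fat, CCL2 had 532.5 CPM in bull 1 against 31.8 to 73.2 CPM in the other bulls, and CCL26 had 24.6 CPM in bull 5 against 0.886 to 2.86. CCL19 stood at 28.1 CPM in cow 2 against 0.551 to 5.08 in the other cows. CCL21 reached 22.3 CPM in bull 3, CCL27 2.86 CPM in bull 5 and CCL3 3.71 CPM in bull 2.

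In the pituitary gland, CXCL10 had 60.2 CPM in bull 3 against 12.5 to 18.8 in the other bulls, and CXCL17 had 3.91 CPM in bull 5 against at most 0.252. CCL2 had 26.3 CPM in cow 5 against 5.22 to 11.2 in the other cows.

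In muscle, CXCL13 had 10.9 CPM and CCL2 18.6 CPM in bull 1, against at most 0.967 and 3.98 CPM in the other bulls. The 3 measured B cell markers also summed to 13.6 CPM in that library and to at most 2.41 CPM in the other 9 muscles.

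In liver, CXCL17 had 14.2 CPM and CCL3 19.6 CPM in cow 3 and cow 1, CCL26 4.79 CPM in cow 5 and CXCL14 4.004 CPM in bull 1. CXCL9 had 14.4 CPM in bull 4, against at most 4.06 CPM in the other bulls.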

How the results depend on the processing

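For sex in muscle, the count of chemokine genes went from 2 to 0 in the quasi-likelihood test and to 1 with RLE factors or library sizes alone, and ran from 0 to 7 on leaving out an animal. On leaving out an animal it ran from 0 to 1 in liver and in the pituitary gland, from 0 to 5 in M2 and from 0 to 2 for the interaction, where it was 1 without the fat of bull 5. With an adjusted P-value under 0.1, M2 called 2. The total counts called between tissues stayed within 1.5 times under every alternative run, while those higher in muscle than in fat went from 8 to 4 with library sizes alone. No sex difference of a gene called or lowest in P-value and no tissue difference of a gene highest in a tissue turned direction, while the sex difference of CXCR4 in muscle, which was not called, did (-0.47 to 0.25 on leaving out an animal). Of the fits for the former genes, 83 for sex and 405 for tissue kept their side of the threshold, 20 and 25 lost it and 1 and 0 gained it. With the animal as replicate block, the tissue counts were 34 for liver against fat, 31 for liver against muscle, 38 for liver against pituitary gland, 28 for fat against muscle, 35 for fat against pituitary gland and 31 for muscle against pituitary gland. The block gained CX3CR1 in 3 of these contrasts and lost CCL20, CCL22, CCR6 and CXCL11 in 1 each. Causes were not tested. Counts under 3 reads, and 5 animals per sex, limit what the low genes can show.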
